A study of Mus musculus with 12 samples.

Results

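Acyl-CoA thioesterases split the thioester bond of an acyl-CoA and release a free fatty acid and coenzyme A. The genes described here are Acot1, Acot2, Acot3, Acot4, Acot6, Acot7, Acot8, Acot9, Acot12 and Acot13, found in the count table by their gene symbols. They are 10 of 55357 genes in the table, and all 10 passed the filter on low counts that left 17358 genes for testing. The family was chosen with measured values of these libraries known, and which values were used is not stated. It was taken to have been selected on the level of Acot1 in KO chow relative to WT CDAHFD, so that contrast is given below as a description with no test. The other comparisons use the same libraries and are not independent of the choice.

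Liver RNA came from male C57BL/6J mice in 4 groups. All mice carried the floxed Ppara allele (PPARafl/fl). Wild type (WT) mice were AlbuminCre+/+ and hepatocyte-specific PPARα knockout (KO) mice were AlbuminCreTg/+, so the Albumin promoter drives the deletion in hepatocytes and other liver cells keep the gene. Mice received chow or CDAHFD, a high-fat diet without choline whose protein is given as single amino acids, for 6 weeks, from an age of 7 weeks to 13 weeks, and gave 4 WT chow, 3 WT CDAHFD, 2 KO chow and 3 KO CDAHFD libraries.

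The CoA esters that these enzymes hydrolyse are made by acyl-CoA synthetases and are used in β-oxidation, acyl transfer and lipid synthesis. The family is split by structure into type I enzymes of the α/β-hydrolase fold (Acot1 to Acot6), whose genes lie next to each other, and type II enzymes of the hotdog fold (Acot7 to Acot13). Its members are spread over the cytosol, mitochondria and peroxisomes. In liver, PPARα is a fatty acid-activated receptor that drives genes of fatty acid oxidation, and several Acot genes are known to rise when it is activated by agonists or fasting.

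Libraries held 29906785 to 43551003 counts (median 36989922). The targeted gene Ppara, counted over all its exons, stood at 96.2 to 237.8 CPM (a count as a share of the library, scaled by the trimmed mean of M-values, TMM) in WT chow and at 59.5 to 75.5 CPM in WT CDAHFD. The KO chow libraries had 14.4 and 38.7 CPM, and KO CDAHFD had 20.7 to 51.9 CPM. In 4 libraries (WT chow 3 and 4, KO chow 2 and KO CDAHFD 3) the clock genes stood apart, with Dbp at 44.8 to 130.3 CPM against 0.388 to 3.75 CPM in the other 8 and a score of morning minus evening clock genes below 0. Results below are also given for those 8 libraries where a call changed; that fit has 1 KO chow library, assumed to vary like the other groups. The summed CPM of 12 hepatocyte markers was 102500 to 125800 on chow and 53660 to 63880 on CDAHFD in WT mice, and 84460 to 97940 on chow and 51600 to 68110 on CDAHFD in KO mice. The sum of 12 macrophage markers was 354.7 to 652.5 CPM on chow and 2115 to 2931 on CDAHFD in WT mice, and 1353 to 1618 on chow and 2140 to 2400 on CDAHFD in KO mice. Of these markers, 8 were called higher and 1 lower in WT CDAHFD against WT chow, beside 51.1% of all tested genes called. The sum of 8 cholangiocyte markers was 70.2 to 105.4 CPM in WT chow and 390.3 to 613.4 in WT CDAHFD. In KO mice it was 189.1 to 309.1 CPM on chow and 610.4 to 923.8 on CDAHFD. The sum of 10 stellate cell and fibroblast markers ran from 245.7 to 368.7 CPM in WT chow and from 1400 to 2517 CPM over the libraries of the other groups. These sums move with genotype and diet, as many of the Acot differences do, and their part in those differences was not tested. In whole liver, fewer cells of a type and less RNA per cell cannot be told apart.

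The type I genes lie head to tail on the plus strand of chromosome 12 within 123.5 kb (GRCm38, chr12:83987861-84111349), in the order Acot2, Acot1, Acot4, Acot3, Acot5 and Acot6, and Acot5 had 23 counts over all libraries and was not tested. Acot1 (ENSMUSG00000072949) spans chr12:84009490-84018371 with 4 exon blocks and Acot2 (ENSMUSG00000021226) spans chr12:83987861-83993873 with 3. Both are protein-coding genes, and their coding sequences were identical at 1180 of 1239 aligned bases (95.2%). The longest stretch without a difference had 273 bases. Of all 100-base words in the annotated transcripts of Acot2, 17.1% also occurred in another gene, which was Acot1 in every case, and for Acot1 the share found in other genes was 12.3%. The 60-base window of the coding sequences with the most differences held 13 of them. It is shown from coding base 823 to 882 of Acot1 and from 946 to 1005 of Acot2 with the differing bases in capitals. Within the aligned coding bases only reads over such differences tell these genes apart. Most 100-base words of either gene's transcripts, which also hold untranslated bases, occurred in no other gene.
Acot1: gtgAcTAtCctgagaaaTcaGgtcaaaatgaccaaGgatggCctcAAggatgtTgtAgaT
Acot2: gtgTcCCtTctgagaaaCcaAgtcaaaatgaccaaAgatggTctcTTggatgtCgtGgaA
The other coding sequences of the cluster were further apart, at 83.9% identity between Acot1 and Acot3, 76.6% between Acot1 and Acot4 and 75.3% between Acot1 and Acot6. They still shared words, with 15.9%, 8.24% and 0.95% of the 100-base words of Acot3, Acot4 and Acot6 found in other genes. The longest identical stretch of Acot1 and Acot3 had 203 bases. Gm49366, on the same strand, shares 11.5% of the Acot3 exon bases and had 0 counts.

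The upstream sequences of Acot1 and Acot2 are shown beside their nearly identical coding sequences. They were not aligned to each other, and whether they bear on the RNA levels of these genes was not tested. The RefSeq table (GRCm38.p6) matched 8 of the 10 members, with 9 promoter entries, and Acot6 and Acot13 had none. The 250 bases before the RefSeq start site are given on the plus strand, at chr12:84009252-84009501 for Acot1 and chr12:83987611-83987860 for Acot2, with the letters CCAAT and GGGCGG, read on either strand, in capitals.
Acot1 upstream: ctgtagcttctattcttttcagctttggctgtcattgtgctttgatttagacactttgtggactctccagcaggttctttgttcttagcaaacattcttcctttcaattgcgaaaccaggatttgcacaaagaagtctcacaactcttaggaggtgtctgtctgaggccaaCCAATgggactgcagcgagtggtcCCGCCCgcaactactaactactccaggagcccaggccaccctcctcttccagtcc
Acot2 upstream: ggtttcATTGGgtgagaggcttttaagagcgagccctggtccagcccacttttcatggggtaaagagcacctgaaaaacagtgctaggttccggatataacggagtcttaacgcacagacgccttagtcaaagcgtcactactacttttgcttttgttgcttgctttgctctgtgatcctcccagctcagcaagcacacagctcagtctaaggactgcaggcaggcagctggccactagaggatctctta
Acot1 held CCAAT 79 bases and the GC box GGGCGG 55 bases before the start site, and Acot2 held CCAAT only, 244 bases before it. Over all 32817 promoter entries of 300 bases, 37.4% held CCAAT and 35.6% held GGGCGG.

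The direct repeat bound by PPAR and RXR pairs, searched as AGGTCANAGGTCA on both strands, was in none of the 9 member entries and in 0.0396% of all entries. Its half-site AGGTCA was in the entries of Acot3, Acot4 and Acot12 and in 16.3% of all, and every full repeat also contains that half-site. The E-box CACGTG, to which clock factors bind, was in the Acot4 entry and in 7.15% of all. The 120 bases before the start of Acot4 (chr12:84038259-84038378) are shown with the CCAAT box, the E-box and the half-site in capitals, the last read on the opposite strand.
Acot4 upstream: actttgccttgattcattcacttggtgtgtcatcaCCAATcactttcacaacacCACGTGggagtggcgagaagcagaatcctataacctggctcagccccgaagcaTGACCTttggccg
These matches are letters in a window of 300 bases, and nothing was measured here on binding.

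Taken over exon length, Acot12 and Acot13 made up most of the Acot RNA of WT chow liver. On the scale of CPM per kb of exon, Acot13 held 39.6% ± 3.64 (SD, n = 4) and Acot12 34.7% ± 4.36 of the summed level of the 10 genes in WT chow, followed by Acot7 at 7.89% ± 0.828 and Acot8 at 6.94% ± 1.39. Acot13 and Acot12 ranged over 35.3% to 44.0% and 30.7% to 39.2% and overlapped. In KO chow, Acot12 stood at 15.0% ± 3.37 (n = 2), close to Acot1 at 15.6% ± 4.89, and Acot2 at 10.8% ± 0.519, while Acot13 kept 34.9% ± 0.0468. In WT CDAHFD, Acot1 held 3.04% ± 0.0849 (n = 3) and Acot2 8.08% ± 0.953. The summed CPM of the family was 302.8 ± 70.2 in WT chow and 237.9 ± 6.18 in WT CDAHFD. The KO mice had 424.1 ± 4.65 on chow and 264.6 ± 3.40 on CDAHFD. The highest WT chow library, at 396 CPM, lay below both KO chow libraries and above all CDAHFD libraries. The lowest, WT chow 1 at 227.7 CPM, lay below all CDAHFD libraries.

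**Figure D1:**
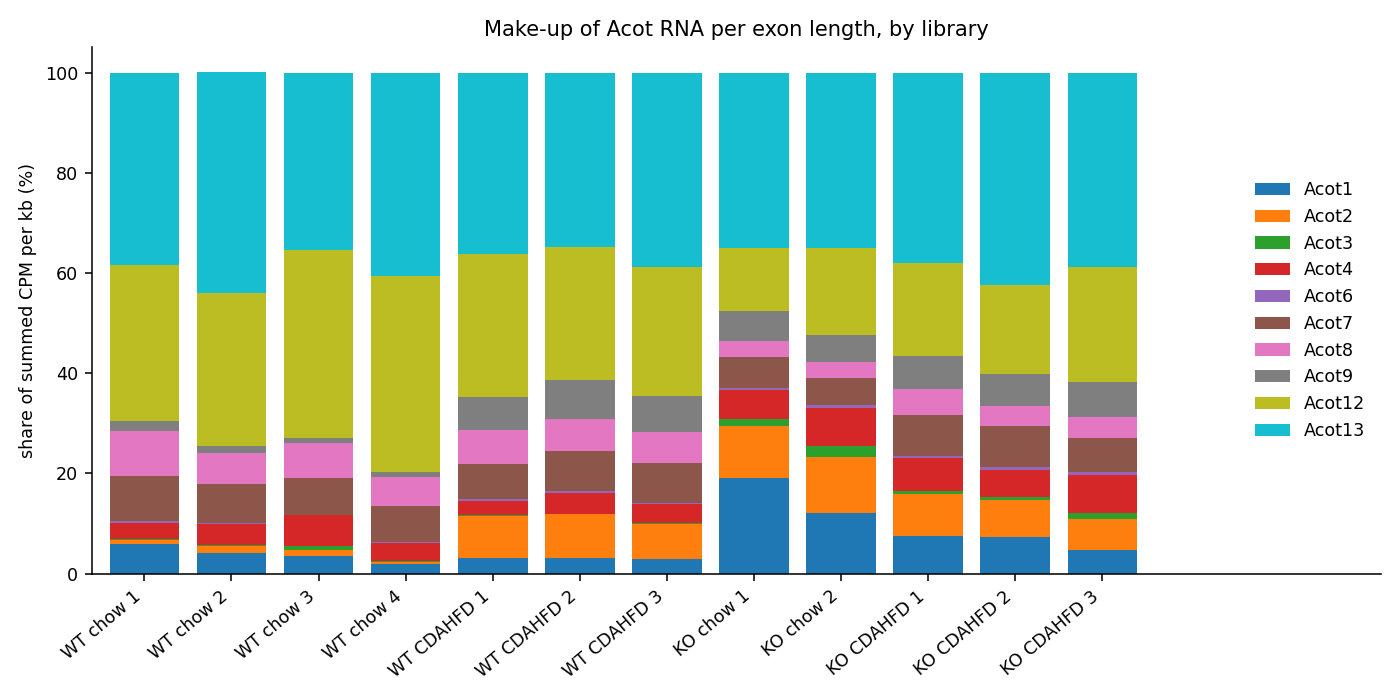
Stacked bars for each of the 12 libraries show the share of each Acot gene in the summed CPM per kb of exon of the 10 genes, in percent. Acot12 and Acot13 fill most of each WT chow bar, and Acot1 and Acot2 take their largest parts in the KO chow bars, at 12.1% to 19.0% and 10.4% to 11.2%.

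The first comparison asked how deletion of Ppara in hepatocytes on chow changed the family. In KO chow against WT chow, 6 of 10 members were higher and 2 were lower, beside 39.0% of all tested genes called in either direction, 22.0% higher and 17.0% lower, by the quasi-likelihood test of edgeR with Benjamini-Hochberg adjustment. With library size only, without the scaling factors, the same count of 8 was split into 8 higher and 0 lower. The median log2 fold change was 1.36 over the members and 0.002 over all tested genes. All 5 tested genes of the chromosome 12 cluster were among the 6 that rose, and the other one was Acot9. In 8 members the groups did not overlap, 6 above and 2 below, against 50.2% of all tested genes, 27.2% above and 23.0% below. Acot1, on whose KO chow level the family was taken to be chosen, is in both counts.

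Acot2, the thioesterase of the mitochondrial matrix for long-chain acyl-CoA, had the largest change of the family. Its level was 1.86, 4.16, 4.50 and 1.19 CPM in WT chow and 40.1 and 41.8 CPM in KO chow, a rise of 3.78 on the log2 scale (SE 0.35, adjusted p = 4.03e-06). Both KO chow libraries were far above every WT chow library, where the level rested on 26 to 135 counts. Acot1, the cytosolic enzyme for long-chain acyl-CoA, stood at 23.8, 20.8, 22.5 and 10.8 CPM in WT chow and 130.7 and 81.0 CPM in KO chow, with a log2 change of 2.44 (SE 0.28, adjusted p = 2.32e-05). Its groups did not overlap either, and the KO chow libraries differed from each other more than they did for Acot2. The KO chow levels of Acot1 were taken as part of the choice, so its p-value is not independent of that choice. With the counts of Acot1 and Acot2 summed to 1 feature, so that reads could not be exchanged between them, the log2 fold change was 2.71 (SE 0.26, adjusted p = 6.48e-06 by edgeR's quasi-likelihood test).

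The peroxisomal members of the cluster were higher in KO chow as well. Acot3, an enzyme for medium- and long-chain acyl-CoA, was at 0.544, 1.29, 3.87 and 0.780 CPM in WT chow and at 9.36 and 12.8 CPM in KO chow, a log2 change of 2.74 (SE 0.54, adjusted p = 0.0015). The third WT chow library was the highest of its group and still below KO chow. Acot6, known for branched-chain acyl-CoA, was low, at 1.63, 1.92, 1.27 and 0.963 CPM in WT chow and 4.0 and 5.89 CPM in KO chow, and rose by 1.76 (SE 0.25, adjusted p = 1.46e-04). In the 8 libraries the Acot6 value was 1.17 (adjusted p = 0.00944).

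Acot4, which hydrolyses succinyl-CoA and other dicarboxylic esters, had the weakest call of the cluster. It stood at 22.4, 35.8, 67.4 and 32.7 CPM in WT chow and 67.3 and 86.1 CPM in KO chow, with a log2 change of 0.95 (SE 0.31, adjusted p = 0.028). The groups overlapped by a narrow margin, since WT chow 3 was level with KO chow 1. The call was lost without any of WT chow 2 (0.92, adjusted p = 0.0565), WT chow 4 (0.88, adjusted p = 0.0634), KO chow 1 (1.14, adjusted p = 0.0561) or KO chow 2 (0.77, adjusted p = 0.171). Acot3 and Acot4 share 9.08% and 9.21% of their exon bases with the antisense gene 4732463B04Rik, which had 777 counts in all against 1475 for Acot3 and 20508 for Acot4, and the libraries do not keep strand.

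Outside the cluster, Acot9, a mitochondrial type II enzyme on the X chromosome (chrX:155262443-155297654, 17 exon blocks), rose with little spread. It was at 4.74, 3.97, 3.64 and 2.84 CPM in WT chow and 23.6 and 21.3 CPM in KO chow, a log2 change of 2.56 (SE 0.15, adjusted p = 1.72e-07). Acot12, the cytosolic acetyl-CoA hydrolase of liver (chr13:91741512-91786148, 16 exon blocks), was at 105.4, 132.8, 202.0 and 177.5 CPM in WT chow and 72.6 and 97.3 CPM in KO chow, and fell by 0.86 on the log2 scale (SE 0.23, adjusted p = 0.00923). Every KO chow library was below every WT chow library, and the WT chow libraries with a low clock score were the higher ones. Without KO chow 1 the Acot12 difference was -0.65 (adjusted p = 0.128 by edgeR's quasi-likelihood test) and the call was lost.

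Acot8, a peroxisomal enzyme of broad specificity, also fell. It stood at 18.2, 16.2, 22.6 and 15.8 CPM in WT chow and 11.5 and 10.6 CPM in KO chow, a log2 change of -0.72 (SE 0.17, adjusted p = 0.00444). The groups did not overlap. Acot8 shares 12.3% of its exon bases with Snx21 on the opposite strand (6203 and 5177 counts in all), and those reads cannot be told apart. With library size only, the values of Acot8 and Acot12 were -0.32 (adjusted p = 0.149) and -0.45 (adjusted p = 0.1) and both calls were lost.

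Acot7, an arachidonoyl-CoA thioesterase best known from brain, and Acot13, a small mitochondria-associated enzyme, did not pass the test in KO chow. Acot7 was at 19.8, 21.8, 25.4 and 21.5 CPM in WT chow and 22.9 and 19.7 CPM in KO chow, and the groups overlapped (log2 change -0.05). Acot7 was called higher with library size only (0.35, adjusted p = 0.0402). Acot13 was at 29.3, 43.0, 42.9 and 41.6 CPM in WT chow and 45.4 and 44.3 CPM in KO chow, a log2 change of 0.19 (SE 0.15, adjusted p = 0.334). Its KO chow libraries lay just above all WT chow libraries, and with library size only the value was 0.60 (adjusted p = 0.00216), and in the 8 libraries it was 0.33 (adjusted p = 0.272).

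**Figure D2:**
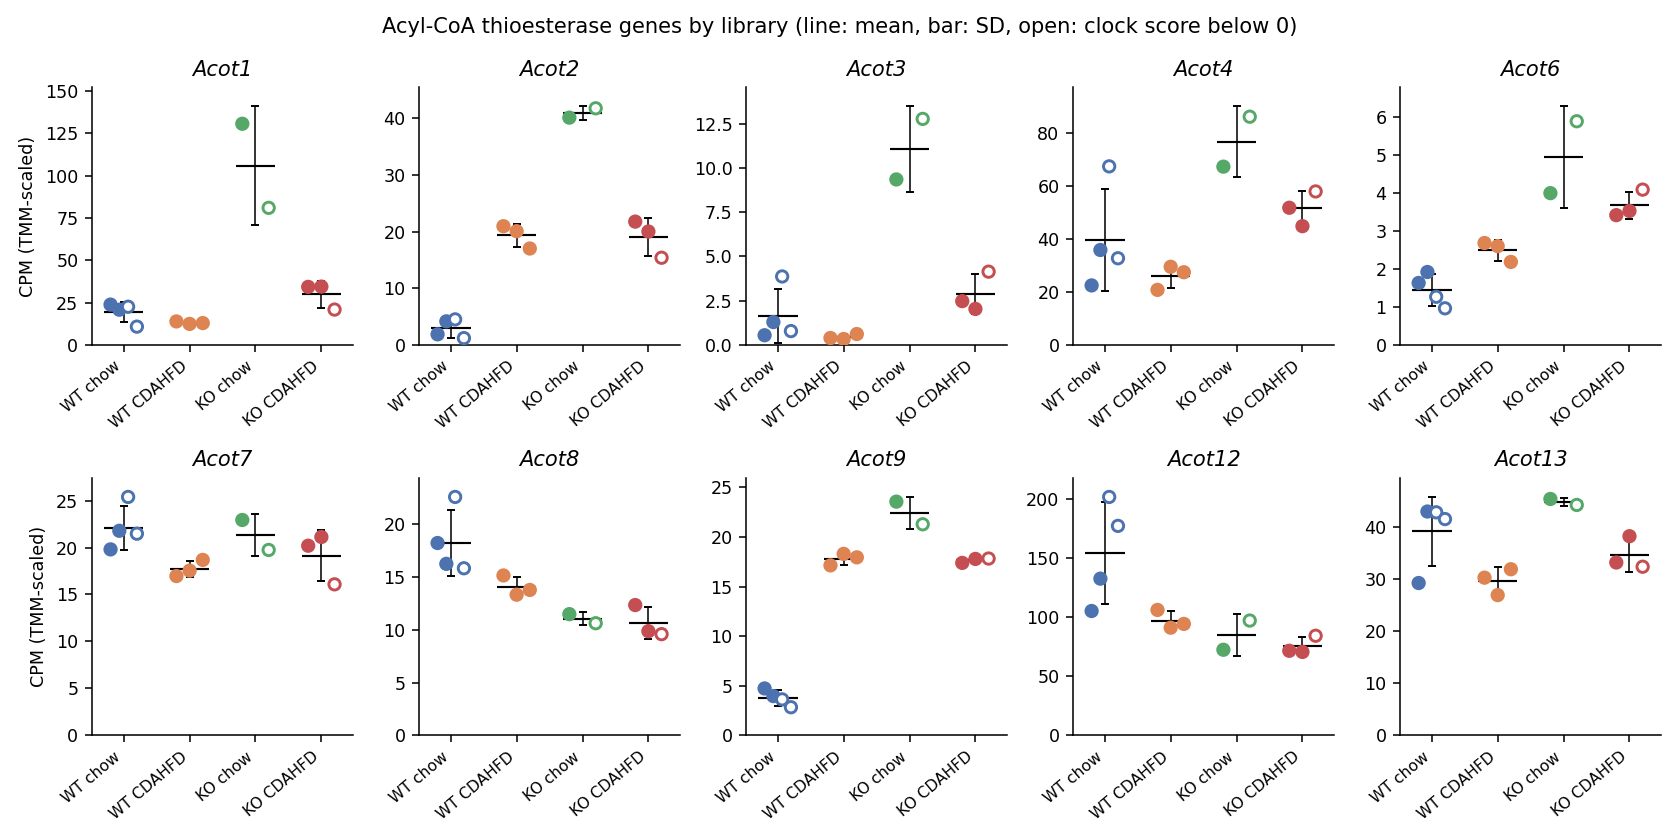
Each panel plots one Acot gene as TMM-scaled CPM (axis from 0) in 12 libraries by group, with the group mean as a line, the SD as a bar and open points for the 4 libraries with a clock score below 0. Acot1, Acot2 and Acot3 are highest in both KO chow libraries, and Acot9 sits between 2.84 and 4.74 CPM in WT chow and at 17.1 CPM or more in every other library.

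The second comparison asked what the diet did in WT mice. In WT CDAHFD against WT chow, 3 of 10 members were higher and 5 lower, beside 51.1% of all tested genes called, 26.1% higher and 25.0% lower. With library size only, 3 were higher and 0 lower. The median over the members was -0.39 on the log2 scale, and -0.05 over all tested genes. The genes that rose were Acot2, Acot6 and Acot9. In the 8 libraries 3 members were called, 2 higher and 1 lower.

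Acot2 stood at 21, 20.1 and 17.0 CPM in WT CDAHFD, against 1.19 to 4.50 CPM in WT chow, a rise of 2.69 (SE 0.32, adjusted p = 1.81e-05). Acot9 stood at 17.1, 18.3 and 17.9 CPM against 2.84 to 4.74 CPM and rose by 2.22 (SE 0.14, adjusted p = 1.16e-07). In both genes the groups lay far apart. Acot6 was at 2.68, 2.60 and 2.19 CPM against 0.963 to 1.92 CPM, a rise of 0.77 (SE 0.24, adjusted p = 0.0151) without overlap. The Acot6 call was lost without WT CDAHFD 1 (0.72, adjusted p = 0.0528) and in the 8 libraries (0.48, adjusted p = 0.0829).

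Acot1 did not follow Acot2 under the diet. It was at 13.9, 12.4 and 12.9 CPM in WT CDAHFD against 10.8 to 23.8 CPM in WT chow, a log2 change of -0.58 (SE 0.26, adjusted p = 0.0807) that did not pass the test. In the 8 libraries the value was -0.77. By edgeR's quasi-likelihood test Acot1 was called lower without WT chow 4 (-0.77, adjusted p = 0.00835) and without a filter (-0.53, adjusted p = 0.0359). The same test called it with a replicate block (-0.78, adjusted p = 0.00599) and with the clock covariate (-0.69, adjusted p = 0.012). With library size only the value was -0.04 (adjusted p = 0.914). The WT CDAHFD levels of Acot1 were taken as part of the choice. All WT CDAHFD libraries lay between the lowest WT chow library and the other 3. The sum of Acot1 and Acot2 gave 0.53 (SE 0.24, adjusted p = 0.0852).

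Acot3 stood at 0.389, 0.330 and 0.612 CPM in WT CDAHFD against 0.544 to 3.87 CPM in WT chow, a log2 change of -1.90 (SE 0.59, adjusted p = 0.017) with overlapping groups. The value rested on WT chow 3, without which it was -0.99 (adjusted p = 0.0714), and the call was also lost without WT CDAHFD 1 (-1.81, adjusted p = 0.0585) or WT CDAHFD 2 (-1.72, adjusted p = 0.0668). In the 8 libraries it was -1.08 (adjusted p = 0.0548). Acot4 was at 20.8, 29.5 and 27.4 CPM, overlapping WT chow (-0.61, adjusted p = 0.0928), and was called without WT chow 1 (-0.79, adjusted p = 0.0203).

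The other lower calls were small. Acot12 was at 106.3, 91.3 and 94.5 CPM, a log2 change of -0.67 (SE 0.20, adjusted p = 0.0125). WT CDAHFD 1 lay just above the lowest WT chow library. The Acot12 call was lost without WT CDAHFD 2 (-0.62, adjusted p = 0.051) and in the 8 libraries (-0.29, adjusted p = 0.0733), which leave out the higher pair of WT chow libraries. It was -0.10 (adjusted p = 0.667) with library size only. Acot13 (30.3, 27.0 and 31.9 CPM), Acot8 (15.1, 13.3 and 13.8 CPM) and Acot7 (17.0, 17.5 and 18.7 CPM) had log2 changes of -0.40, -0.37 and -0.32 (adjusted p = 0.0259, 0.0452 and 0.047 by edgeR's quasi-likelihood test). These calls held in 7, 4 and 3 of 12 fits that each left out 1 library, and without WT chow 3 they were -0.34, -0.24 and -0.23 (adjusted p = 0.067, 0.154 and 0.13). None of the 3 was called in the 8 libraries or without a filter on low counts, and DESeq2 called Acot13 (adjusted p = 0.0375) but not Acot8 (0.0765) or Acot7 (0.0806). The differences of these 3 genes turned positive with library size only (0.17, 0.18 and 0.24).

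**Figure D3:**
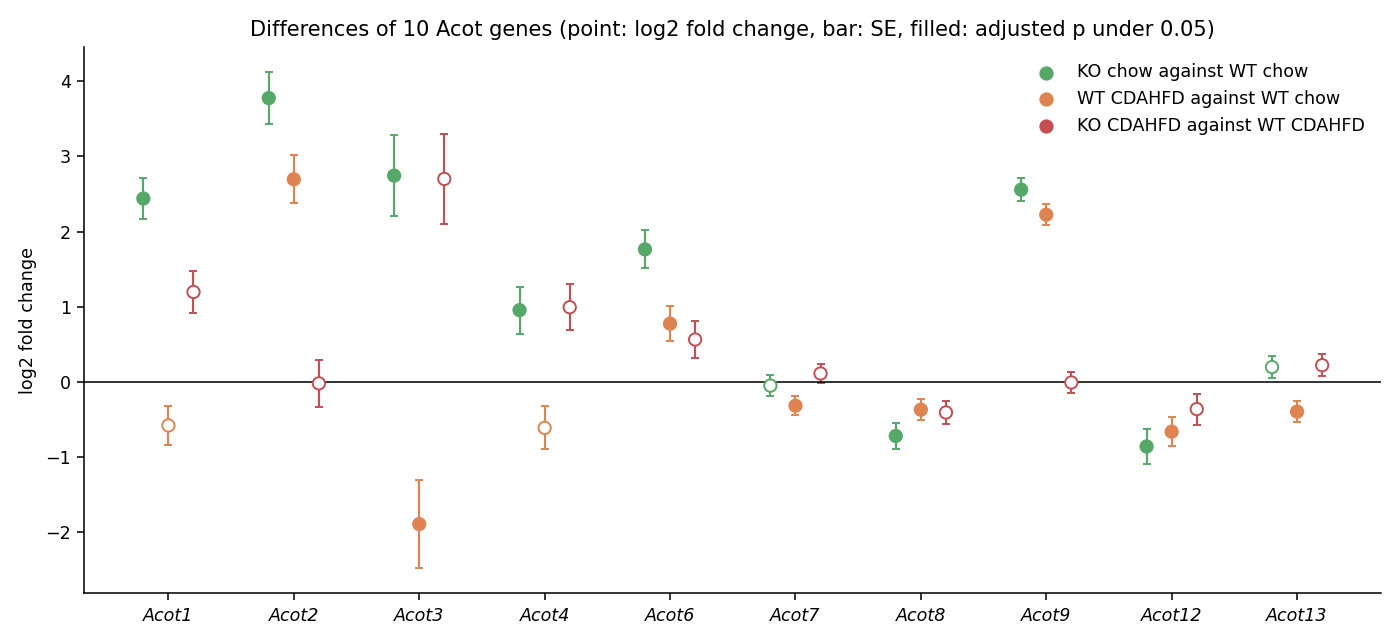
Points show the log2 fold change and bars the SE of each Acot gene in KO chow against WT chow, WT CDAHFD against WT chow and KO CDAHFD against WT CDAHFD, filled where the adjusted p was under 0.05. Acot2 and Acot9 are high in both comparisons with WT chow (both above 2) and near 0 between the genotypes under CDAHFD, where no point is filled.

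Next came the effect of genotype under CDAHFD. In KO CDAHFD against WT CDAHFD, 0 of 10 members were called by edgeR's quasi-likelihood test, beside 0.357% of all tested genes, 0.0864% higher and 0.271% lower. At an unadjusted p under 0.05 there were 5 members, beside 8.77% of all tested genes. DESeq2 called Acot1 (1.19, adjusted p = 0.00479) and Acot3 (2.71, adjusted p = 3.84e-04). In 7 members the groups did not overlap, 5 above and 2 below, against 20.8% of all tested genes, 9.47% above and 11.3% below.

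Acot1 was at 34.3, 34.4 and 20.9 CPM in KO CDAHFD, above every WT CDAHFD library, with a log2 change of 1.20 (SE 0.28, adjusted p = 0.127). KO CDAHFD 3, which had the lowest clock score of all libraries, was the lowest. In the 8 libraries, which leave it out, the Acot1 value was 1.40 (adjusted p = 4.98e-04). The call also appeared without WT chow 4 (1.20, adjusted p = 0.0287). That library is in neither compared group and enters through the filter, the scaling and the shared spread. Acot1, whose WT CDAHFD levels were taken as part of the choice, was called in 1 of the 12 fits that left out 1 library. By edgeR's quasi-likelihood test it was also called without a filter (adjusted p = 5.06e-04) and with the clock score as a covariate (0.0118). With a replicate block and with the compared groups alone the adjusted p was 0.0268 and 0.0203.

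Acot3 was at 2.47, 2.03 and 4.14 CPM in KO CDAHFD, also above every WT CDAHFD library, with a log2 change of 2.7 (SE 0.60, adjusted p = 0.109). In the 8 libraries it was 2.35 (adjusted p = 0.0272), and without WT chow 3 it was 2.72 (adjusted p = 0.0118). Acot4 was at 51.8, 44.8 and 57.9 CPM in KO CDAHFD, above WT CDAHFD in each library (0.99, SE 0.31, adjusted p = 0.315), and Acot6 at 3.42, 3.53 and 4.09 CPM was too (0.56, SE 0.24, adjusted p = 0.522). Thus 4 of the 5 tested cluster genes lay above WT CDAHFD without overlap, beside 9.47% of all tested genes. None was called in the main fit. By edgeR's quasi-likelihood test, Acot3 was called without a filter (adjusted p = 1.38e-04) and with a replicate block (0.0153). With the compared groups alone, Acot3 and Acot4 were called (0.0162 and 0.0284), and Acot4 also without a filter (0.011). Of the 12 fits that left out 1 library, 1 called Acot3 and 0 called Acot4.

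The exception in the cluster was Acot2. It stood at 21.8, 20.02 and 15.4 CPM in KO CDAHFD, on both sides of the range of WT CDAHFD (-0.02, SE 0.32, adjusted p = 0.989, and 0.11 in the 8 libraries). Acot9 was at 17.4, 17.8 and 17.8 CPM, with overlapping groups (-0.01, SE 0.14, adjusted p = 0.989). A p above the threshold does not show that the genotypes are equal, and the SE gives the precision. Acot12 (71.7, 70.7 and 84.4 CPM) and Acot8 (12.3, 9.87 and 9.59 CPM) lay below WT CDAHFD without overlap, at -0.36 (SE 0.21, adjusted p = 0.679) and -0.41 (SE 0.15, adjusted p = 0.45). Acot13 (33.2, 38.3 and 32.4 CPM) lay above it, at 0.22 (SE 0.14, adjusted p = 0.726), and Acot7 (20.2, 21.1 and 16.1 CPM) overlapped. With the clock score as a covariate Acot12 was called lower (-0.54, adjusted p = 0.0494 by edgeR's quasi-likelihood test).

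In KO mice Acot1 was lower on the diet, in a comparison that uses its KO chow levels, taken as part of the choice. In KO CDAHFD against KO chow, 1 of 10 members was called, beside 6.19% of all tested genes, and it was lower, beside 2.44% lower and 3.76% higher. Acot1 fell by 1.83 on the log2 scale (SE 0.30, adjusted p = 0.00517 by edgeR's quasi-likelihood test), from 130.7 and 81.0 CPM to between 20.9 and 34.4 CPM. Without KO chow 1 the value was -1.43 (adjusted p = 0.0694). Acot2 (-1.10, SE 0.35, adjusted p = 0.0838) lay below KO chow in all libraries, as did Acot3 (-1.94, SE 0.57, adjusted p = 0.0634). DESeq2 called both (adjusted p = 0.0447 and 0.0191). By edgeR's quasi-likelihood test both were called without a filter (adjusted p = 0.00618 and 0.00201) and with the compared groups alone (0.021 and 0.0268). The same test called Acot3 with a replicate block (adjusted p = 0.00772) and with the clock score as a covariate (0.0119). Acot3 was called in the 8 libraries (-2.05, adjusted p = 0.0356), without WT chow 1 (-1.91, adjusted p = 0.0361) and without WT chow 3 (-1.91, adjusted p = 0.0139), and Acot2 without WT chow 4 (-1.09, adjusted p = 0.0302). Acot4, Acot9 and Acot13 also lay below KO chow without overlap, at -0.57, -0.34 and -0.37 with adjusted p of 0.332, 0.221 and 0.183. In all, 6 members did not overlap, all below, against 39.1% of all tested genes, 19.9% above and 19.2% below.

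Both together left Acot2, Acot6 and Acot9 higher and Acot8 and Acot12 lower than in WT chow. In KO CDAHFD against WT chow, 3 members were higher and 2 lower, beside 52.4% of all tested genes, 26.9% higher and 25.4% lower. With library size only, 8 were higher and 0 lower, and in the 8 libraries 6 were higher and 2 lower. Acot2 (2.67, SE 0.32, adjusted p = 1.81e-05), Acot9 (2.21, SE 0.14, adjusted p = 1.08e-07) and Acot6 (1.33, SE 0.23, adjusted p = 3.93e-04) were higher. Acot12 (-1.03, SE 0.20, adjusted p = 7.83e-04) and Acot8 (-0.78, SE 0.15, adjusted p = 6.40e-04) were lower. With library size only, the values of Acot12 and Acot8 were -0.40 and -0.17 and neither was called. The gains in the 8 libraries were Acot1 (0.62, against 0.61 and adjusted p = 0.0596 with all 12), Acot3 (1.27, against 0.81) and Acot4 (0.73, against 0.38), with adjusted p of 0.00167, 0.0306 and 0.0274. Acot3 and Acot4 were also called without WT chow 3 alone (1.73 and 0.80, adjusted p = 0.00264 and 0.00535).

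The test of the difference between the genotype effects on both diets called 4 members, all with a negative value. Of all tested genes 23.1% were called, 14.5% of all tested genes with a negative and 8.63% with a positive value. For Acot2 the genotype effect under CDAHFD minus that on chow was -3.80 on the log2 scale (SE 0.47, adjusted p = 1.15e-04) and for Acot9 it was -2.57 (SE 0.21, adjusted p = 6.83e-06), and both calls held in all 12 fits that left out 1 library. For Acot1, whose KO chow and WT CDAHFD levels were taken as the basis of the choice, it was -1.24 (SE 0.39, adjusted p = 0.0376). This call was lost without WT CDAHFD 1 (-1.20, adjusted p = 0.0786), WT CDAHFD 2 (-1.28, adjusted p = 0.0631), WT CDAHFD 3 (-1.25, adjusted p = 0.0621), KO chow 1 (-0.87, adjusted p = 0.208) or KO CDAHFD 3 (-1.04, adjusted p = 0.0697). For Acot6 it was -1.20 (SE 0.35, adjusted p = 0.0266), and the call was lost without any of WT chow 3, WT CDAHFD 1 or 2, KO chow 2 or KO CDAHFD 1 or 2 (-1.17 to -0.90), and in the 8 libraries (-0.69, adjusted p = 0.178). For Acot3 and Acot4, whose genotype differences were 2.74 and 0.95 on chow and 2.7 and 0.99 under CDAHFD, the difference did not pass the test.

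The ratio of Acot1 to Acot2 counts is given as a description with no test. It uses the Acot1 levels in KO chow and WT CDAHFD that were taken as the basis of the choice. The ratio was 12.8, 5.0, 5.01 and 9.04 in WT chow and 0.661, 0.617 and 0.756 in WT CDAHFD. In KO mice it was 3.26 and 1.94 on chow and 1.57, 1.72 and 1.36 on CDAHFD. No library of one group fell into the range of another. Per kb of exon (3919 bases for Acot1, 2196 for Acot2), the ratio was 2.80 to 7.16 in WT chow and 0.346 to 0.424 in WT CDAHFD, and in KO mice 1.09 to 1.82 on chow and 0.760 to 0.964 on CDAHFD. Per length, Acot2 RNA was thus the more abundant of the pair in every CDAHFD library of either genotype and the less abundant in every chow library. This order depends on the annotated exon lengths, since Acot1 had the higher counts in every KO CDAHFD library. The margins were thin in KO CDAHFD 2 (0.964) and KO chow 2 (1.09).

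**Figure D4:**
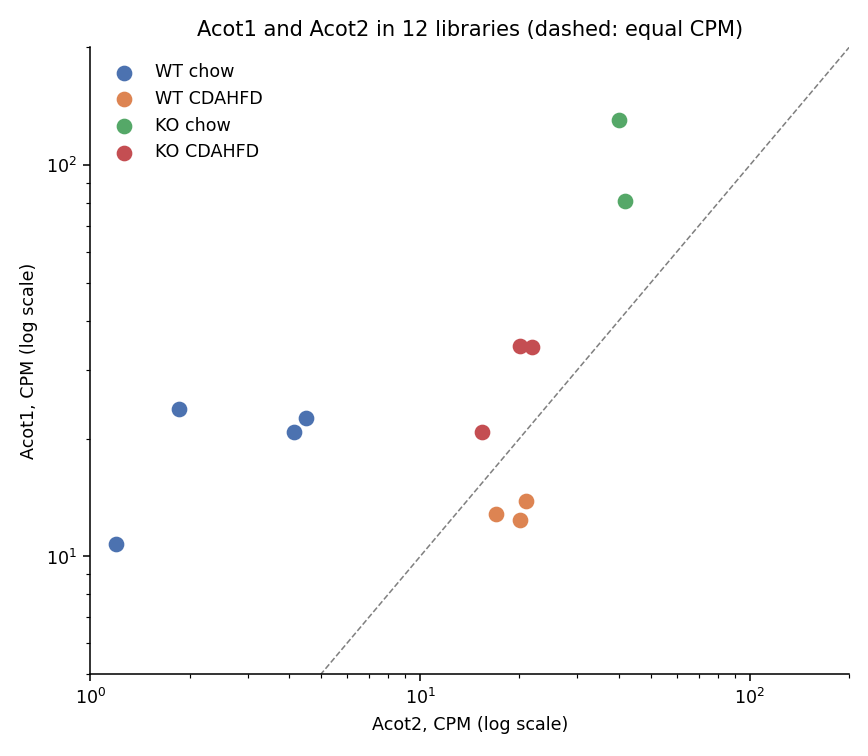
Acot1 is plotted against Acot2 as CPM on log axes, 1 point for each of 12 libraries coloured by group, with a dashed line at equal CPM. Only the WT CDAHFD libraries lie under the line (count ratios from 0.617 to 0.756), and the WT chow libraries lie farthest to the left, at 1.19 to 4.50 CPM of Acot2.

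In the contrast taken as the basis of the choice, Acot1 was at 81.0 and 130.7 CPM in KO chow and at 12.4 to 13.9 CPM in WT CDAHFD, a ratio of group means of 8.12, and Acot2 was at 40.1 and 41.8 CPM against 17.0 to 21 CPM, a ratio of 2.12. The groups did not overlap in either gene, and no test was made.

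Among all tested genes, the ones whose centred log2 CPM was nearest to that of a member over the 12 libraries were as follows, by root mean square difference. For Acot9 they were Map4k4 (0.155), Rhoc (0.161) and Gm34084 (0.185), against a median of 1.17 over all genes. For Acot12 they were Vwa8 (0.112), Cobll1 (0.126) and Foxn3 (0.126), against 0.595. For Acot2 they were Lysmd2 (0.388), Exo1 (0.398) and Spag5 (0.403), against 1.64, and for Acot1 they were Cxcl9 (0.562), Gm3953 (0.573) and Hba-a2 (0.586), against 1.14. No gene followed Acot1 as closely as those that followed Acot9 and Acot12. Among the 3 nearest genes of each of the 10 members, the one Acot gene was Acot1, the third nearest to Acot3 (0.939, against 1.69 over all genes).

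Other genes of acyl-CoA metabolism are given by list, to be read beside the 39.0% of all tested genes called in KO chow against WT chow (22.0% higher, 17.0% lower) and the 51.1% called in WT CDAHFD against WT chow (26.1% higher, 25.0% lower). Of 21 tested acyl-CoA synthetases, which make the thioesterase substrates, 3 were higher and 12 lower in KO chow against WT chow, and 4 and 11 in WT CDAHFD against WT chow, with medians of -1.06 and -0.53. Acsm2, a medium-chain synthetase, changed by -2.69 (SE 0.44, adjusted p = 4.16e-04) in KO chow and by -3.08 (SE 0.38, adjusted p = 2.57e-05) in WT CDAHFD, while Acss1, the mitochondrial acetyl-CoA synthetase, changed by 1.89 (SE 0.37, adjusted p = 0.00144) in KO chow and by 2.61 (SE 0.33, adjusted p = 3.11e-05) in WT CDAHFD. Of 25 tested genes of CoA synthesis, hydrolysis, carnitine transfer and acyl-CoA transport, 1 was higher and 14 lower in KO chow and 1 and 17 in WT CDAHFD. The higher one was Abcd2, a peroxisomal transporter of very long-chain acyl-CoA (2.64 and 2.19, adjusted p = 7.32e-04 and 0.00106), and Nudt7, a peroxisomal CoA hydrolase, was lower (-1.85 and -2.85, adjusted p = 8.05e-05 and 4.76e-07).

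Of 10 other tested thioesterases and relatives, 2 were higher and 4 lower in KO chow and 3 and 5 in WT CDAHFD. The largest called changes were falls, of Acnat1 in KO chow (-1.19, adjusted p = 0.00175) and of Them4 in WT CDAHFD (-1.36, adjusted p = 8.34e-07). Them6 rose in both (0.81 and 1.17, adjusted p = 0.00145 and 2.12e-05, all by edgeR's quasi-likelihood test). Of 22 tested PPARα target genes outside the family, 2 were higher and 12 lower in KO chow and 3 and 11 in WT CDAHFD. Vnn1 fell by 2.51 in KO chow (SE 0.36, adjusted p = 1.42e-04) and rose by 1.77 in WT CDAHFD (SE 0.27, adjusted p = 1.43e-04), whereas Fgf21 and Pdk4, which fasting and other signals also induce, rose by 2.73 and 2.09 in KO chow (adjusted p = 0.00433 and 0.0165) and by 2.86 and 2.49 in WT CDAHFD (adjusted p = 0.00142 and 0.00286).

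Between the genotypes under CDAHFD, 0 of 21 synthetases, 0 of 10 other thioesterases, 2 of 25 CoA-handling genes and 4 of 22 PPARα targets were called, all lower in KO CDAHFD, beside 0.357% of all tested genes. They included Slc25a20, the mitochondrial carnitine-acylcarnitine carrier (-1.16, SE 0.15, adjusted p = 0.004), Cpt2, the inner-membrane carnitine palmitoyltransferase (-1.01, SE 0.10, adjusted p = 8.69e-04), and Vnn1 (-2.69, SE 0.31, adjusted p = 0.00142). No test compared the lists with each other.

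**Figure D5:**
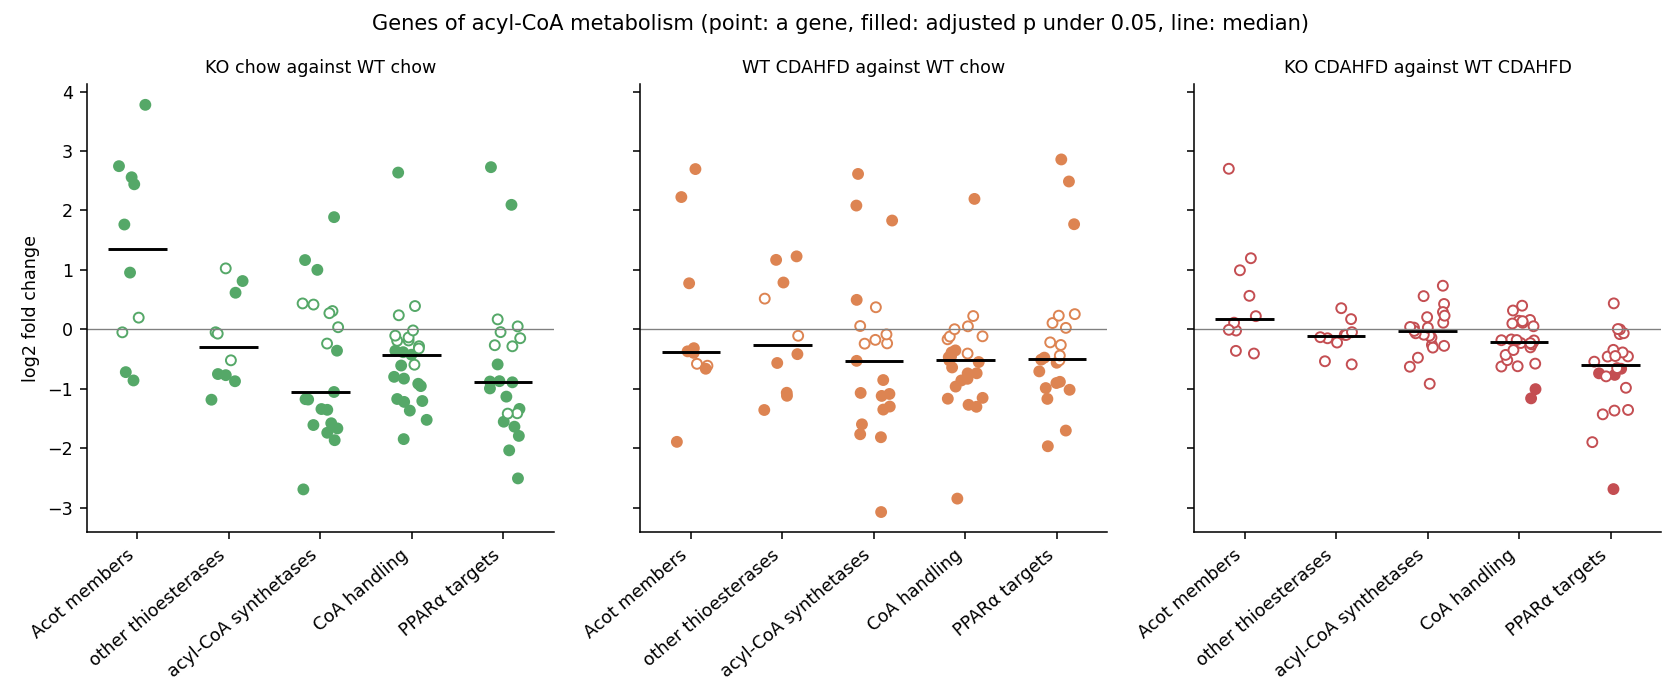
Points show the log2 change of each tested gene of 5 lists in 3 comparisons, filled where the adjusted p was under 0.05, with the list median as a line. In KO chow against WT chow the Acot median is 1.36 and the medians of the other 4 lists lie between -1.06 and -0.30.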

How the data were processed

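The deposited table holds raw read counts per Ensembl gene, which the authors made from poly-A selected, non-directional liver libraries after FastQC 0.11.5 and alignment to GRCm38 with STAR 2.7.3a. The counting program and annotation release are not given in the sources used here. Groups and replicate numbers came from the labels, and each library was taken as a separate mouse. The study's methods state 3 mice per group, while 2 to 4 libraries per group were analysed here. Symbols, exons and coordinates came from GENCODE M21, and promoters from RefSeq (GRCm38.p6).

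Counts were tested in R 4.3.3 with edgeR 4.0.16 (filterByExpr, TMM, quasi-likelihood test, 4 group means over all 12 libraries, 8 residual degrees of freedom), with Benjamini-Hochberg adjustment over 17358 genes and calls at an adjusted p under 0.05. DESeq2, which the authors used (here version 1.42.0, theirs is not given in the sources used here), was an alternative, beside other scalings, no filter, left-out libraries, a replicate block, a clock covariate, summed paralogs and fits of the compared groups alone. The fit of 8 libraries was chosen after seeing the data. The code was tested on simulated data. CPM used the TMM-scaled library sizes, and CPM per kb the union of annotated exons. For nearest patterns, a prior count of 2 went into log2 CPM. The members and lists were chosen with earlier results of these data known. All 10 members are named. Of each other list, at most 3 called genes of largest change in a comparison are named. Words of 100 bases and coding alignments used Biopython 1.88.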

Additional observations from a re-analysis of the deposited data

Results flagged for a closer look

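Acot1, Acot2, Acot6 and Acot9 had a genotype effect that differed between the diets by the interaction test of edgeR's quasi-likelihood fit. Of all tested genes, 23.1% were called. In the 12 fits that left out 1 library, the Acot2 and Acot9 calls held in all, Acot1 in 7 and Acot6 in 6. The Acot1 test uses levels that were taken as the basis of the choice. The difference, KO minus WT under CDAHFD less KO minus WT on chow, was -1.24 for Acot1 (adjusted p = 0.0376), -3.80 for Acot2 (adjusted p = 1.15e-04), -1.20 for Acot6 (adjusted p = 0.0266) and -2.57 for Acot9 (adjusted p = 6.83e-06) on the log2 scale. Acot13 in WT chow 1, at 29.3 CPM, stood apart from the other 3 WT chow libraries at 41.6 to 43.0 CPM, a gap of 0.894 of the group's range, above Dixon's 95% critical value. Of 10 such groups of 4 libraries, 1 was flagged, and chance flags about 1 in 20.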

How the results depend on the processing

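For WT CDAHFD against WT chow the 8 calls became 6 with DESeq2, 7 without a filter, 3 with library size only, 5 with the compared groups alone, 3 in the 8 libraries, and 3 to 8 when 1 library was left out (3 without WT CDAHFD 1 or 2, 4 without WT chow 3). For KO CDAHFD against WT CDAHFD, 0 became 2 with DESeq2, 3 without a filter, 2 with the clock covariate, 3 with the compared groups alone, 2 in the 8 libraries and 0 to 1 with 1 library left out. For KO CDAHFD against KO chow, 1 became 3 with DESeq2, 3 without a filter, 2 with the clock covariate, 3 with the compared groups alone, 2 in the 8 libraries and 0 to 2 with 1 library left out. For KO CDAHFD against WT chow, 5 became 8 with library size only, 8 in the 8 libraries and 5 to 7 with 1 library left out. KO chow against WT chow had 7 to 8 calls in the alternatives and 6 to 8 with 1 library left out, and the interaction 3 to 4 and 2 to 4. The cause of these moves was not tested.

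Same-numbered libraries of different groups did not deviate together (15 pairs, r from -0.242 to 0.266, 3 over 0.1), so the numbers were not taken as pairs. With the replicate block there were 8 calls in KO chow and 7 in WT CDAHFD against WT chow, 2 in KO CDAHFD against WT CDAHFD, 2 against KO chow, 5 against WT chow and 3 in the interaction.

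Library size only moved the median of all genes by 0.40 in KO chow and 0.51 in WT CDAHFD against WT chow, and turned Acot7 (0.24), Acot8 (0.18) and Acot13 (0.17) in WT CDAHFD. Between the genotypes under CDAHFD, values near 0 changed sign: Acot2 was 0.023 with library size only, 0.019 with the clock covariate, 0.11 in the 8 libraries and -0.13 to 0.11 with 1 library left out, and Acot9 was 0.041, 0.069 and -0.037 to 0.011 in the first, second and last of these. The KO chow to WT CDAHFD ratio of Acot2 was 1.90 with library size only, and that of Acot1 and Acot2 summed was 4.53. Depth limits Acot3, Acot6 and Acot2, whose lowest libraries held 14, 21 and 26 counts.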

Other observations

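Acot11, a thioesterase with a lipid-binding START domain that is not in the listed family, stood at 4.0, 3.68, 5.0 and 2.84 CPM in WT chow, 4.61, 6.45 and 5.64 CPM in WT CDAHFD, 3.34 and 2.09 CPM in KO chow and 7.54, 8.15 and 5.66 CPM in KO CDAHFD. It was higher in KO CDAHFD than in KO chow by 1.39 on the log2 scale (SE 0.28, adjusted p = 0.0156 by edgeR's quasi-likelihood test) and without overlap, in the comparison where Acot1 fell. Acot10, an intronless gene whose coding sequence was 97.2% identical to that of Acot9, had 0 counts in every library, which allows up to 3 counts in each.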
